A study of Homo sapiens with 4 samples.

Results

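Cytarabine, a cytidine analogue, is a main drug given for acute megakaryocytic leukaemia, and 9 genes tied to it were followed here after GATA1 knockdown. All but CBS act on the drug or on nucleosides and nucleotides, while CBS acts on homocysteine. The genes CDA, DCK, DCTD, SLC29A1, SLC29A2, NT5C2, NT5C3, SAMHD1 and CBS were matched to the array's non-control probes by gene name, which gave 13 of 41000 probes. The RNAs came from Meg-01, a human megakaryocytic leukaemia line. Knockdown RNA was from the clones GATA1 5-13 and GATA1 4-14, each grown from a single cell colony after infection with lentivirus that carried an shRNA against GATA1. Control RNA was from GATA1 Neg, an infected pool whose shRNA has little homology to human genes. All cells had therefore been through infection, and clones were set against a pool. The study's methods describe puromycin selection of infected cells before colonies were grown. No other drug was named for the cells whose RNA was hybridised. Each clone was set against GATA1 Neg on 2 two-colour Agilent arrays with the dyes in opposite orientation, 4 arrays on 1 slide. The label on RNA extraction names another line, CMK, while every other label names Meg-01.

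GATA1, a zinc finger protein that binds GATA motifs in DNA, is needed for the maturation of megakaryocytes and red cells. Cytarabine enters cells mainly through the equilibrative nucleoside transporter SLC29A1, with a smaller part for SLC29A2. The kinase DCK adds the first phosphate, which is the limiting step in making the active triphosphate. CDA deaminates the drug itself and DCTD its monophosphate, the nucleotidases NT5C2 and NT5C3 take a phosphate off nucleoside monophosphates, and SAMHD1 cleaves deoxynucleoside triphosphates including that of cytarabine. CBS makes cystathionine from homocysteine, lies on chromosome 21, and has been linked to cytarabine response in leukaemia of children with Down syndrome.

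Of the 13 probes, 12 from 8 genes were well above background in both RNAs on all 4 arrays, and the CDA probe was not on any. Across the arrays, 61.6% to 66.4% of spots were above background per channel and 0 spots were saturated. The probe of GATA1, the targeted gene, gave log2 ratios of knockdown over control of -0.21 and -0.34 in GATA1 5-13 and of -0.43 and -0.58 in GATA1 4-14. Its mean was -0.39 ± 0.16 (SD, n = 2 clones), with an adjusted p of 0.60 by limma, so the targeted transcript was lower on every array without passing the test. Its level in the clones was 82.7% and 70.6% of that in GATA1 Neg. Of the markers of the line, megakaryocyte genes were above background in GATA1 Neg on all arrays at 8 of 15 probes, among them ITGA2B, ITGB3, GP1BA and GP9, while PF4, SELP and VWF were never above it. Erythroid genes were above it at 13 of 14 probes, granulocyte and monocyte genes at 1 of 7 and lymphoid genes at 2 of 7. Of the 8 megakaryocyte probes so measured, 4 were lower in both clones and 0 higher, and the log2 of their summed level was 13.99 to 14.08 in GATA1 Neg, 13.57 to 13.62 in GATA1 5-13 and 13.86 to 13.89 in GATA1 4-14. Of the 13 erythroid probes, 3 were lower in both clones and 0 higher, and their summed level was 18.00 to 18.87, 19.02 to 19.03 and 18.14 to 18.70 in the same order. The remaining measured probes of both lists had opposite signs in the clones. Medians in GATA1 5-13 and GATA1 4-14 were -0.30 and -0.05 over the megakaryocyte probes and 0.17 and -0.29 over the erythroid ones. Among probes lower in both clones, mean log2 ratios were -0.29 and -0.30 at both ITGA2B probes and -0.29 and -0.30 at the measured EPOR probes. GP1BA A_23_P152926, also lower in both, was -1.68 in GATA1 5-13 and -0.16 in GATA1 4-14. The ITGB3 probes, with opposite signs, were -0.14, -0.22 and -0.009 in GATA1 5-13 and 0.18, 0.13 and 0.29 in GATA1 4-14. HBG1 A_23_P53137 was 1.00 and -0.38 in the same order. The part of these markers in the values below was not tested. In bulk RNA of this kind, fewer cells of a type and less RNA per cell cannot be told apart.

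DCK and CBS were the genes with the largest differences. Both probes of each lay below 0 on all 4 arrays, at 81.5% to 85.2% of the GATA1 Neg level in either clone, and none passed the test after adjustment. SLC29A2 was higher at 1 of its 2 probes, DCTD was lower at 1 of 2, and SLC29A1, NT5C2, NT5C3 and SAMHD1 had arrays on both sides of 0. In all, 5 of the 13 probes were lower on every array (13.4% of the 40974 probes tested were) and 1 was higher on every array (12.8% of those tested). Among probes above background in both RNAs on all arrays, the shares were 16.8% lower and 15.9% higher. At the cutoff used in the study's methods, an unadjusted p of 0.005, 0 of the 13 probes were lower and 0 higher in the limma test, against 0.574% and 0.327% of all probes and 0.901% in either direction. At an unadjusted p under 0.05, 4 were lower, the DCK and CBS probes, and 0 higher, against 4.05% and 3.39%. At an adjusted p of 0.05 the limma test called 0 of the 13 probes, and 0 of all probes (0%), of which 3046 had an unadjusted p under 0.05. The median log2 ratio of the 13 probes was -0.07 and that of all probes tested was -0.0002. The probes come from 9 genes, so the 2 probes of a gene are not independent of each other.

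**Figure D1:**
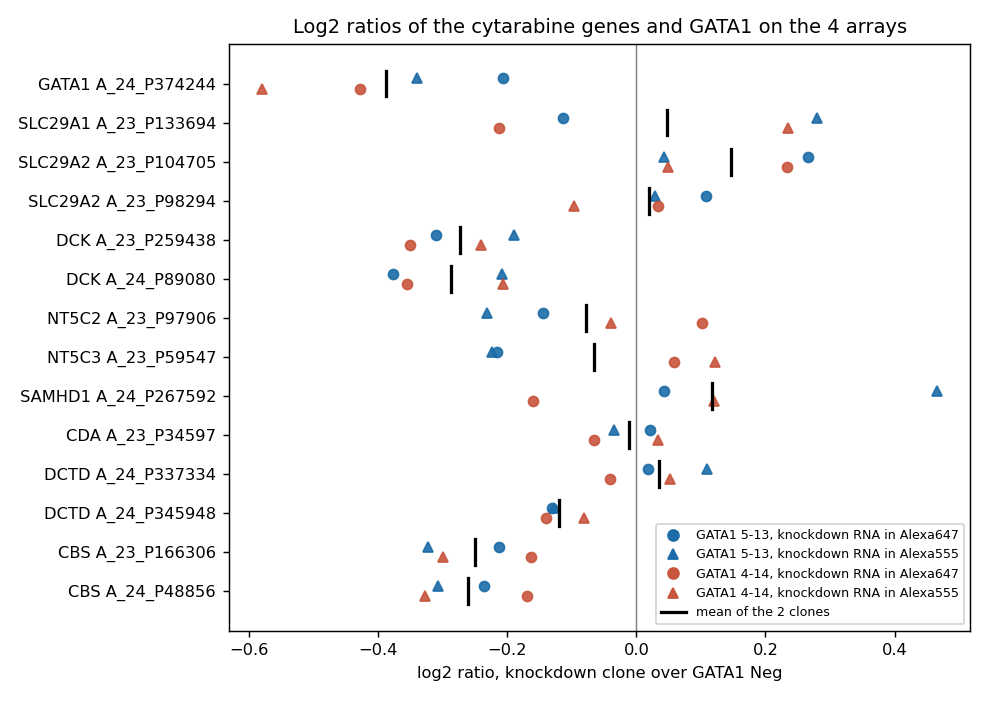
Log2 ratio of knockdown over GATA1 Neg (horizontal axis, in log2 units) of GATA1 and of each probe of the 9 cytarabine genes (rows) on the 4 arrays, with 1 point per array, coloured by clone and shaped by the dye of the knockdown RNA, and a line at the mean of the clones. The DCK and CBS points lie between -0.38 and -0.16, all below 0, while the SLC29A1 points fall on both sides of 0 by dye.

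DCK, the kinase of the first phosphorylation step, was measured by a pair of probes that lie close together on hg18. Probe A_23_P259438, at chr4:72115031-72115090 on the plus strand, gave log2 ratios of -0.31 and -0.19 in GATA1 5-13 and of -0.35 and -0.24 in GATA1 4-14. Probe A_24_P89080, at chr4:72114797-72114856 on the plus strand, gave -0.38 and -0.21 in GATA1 5-13 and -0.36 and -0.21 in GATA1 4-14. After loess, the knockdown RNA was the lower one on every array at both probes, with a larger difference on the array where it carried Alexa647. The means over clones were -0.27 ± 0.03 (SD, n = 2; 95% confidence interval -0.45 to -0.10) and -0.29 ± 0.008 (SD, n = 2; interval -0.46 to -0.12). The adjusted p from limma was 0.59 and 0.57, and 8.38% and 7.53% of all probes tested had a mean further from 0. With both channels scaled to each other across arrays (Aquantile), the level at A_23_P259438 was 14.01 ± 0.01 log2 units in GATA1 Neg (SD over 4 measurements of the same RNA), 13.75 in GATA1 5-13 and 13.72 in GATA1 4-14. The levels of the clones lay below the lowest of those repeat measurements, 14.0, a spread that is technical and holds no variation between cultures. The DCK difference had the same sign in every alternative run, at -0.30 to -0.24 and -0.33 to -0.24. Where the 4 arrays stood as 4 separate values it passed the adjusted threshold at both probes, with a limma adjusted p of 0.044 and 0.0498 out of a range of 0.044 to 0.75 and 0.0498 to 0.73, but arrays of the same extracts are not replicates. With the replicate number, that is the dye orientation, as a block in that fit, both probes missed the threshold, with a limma adjusted p of 0.074 and 0.066.

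The ratios before loess, centred on each array's median, carried a dye difference that grew with brightness. So centred, A_23_P259438 of DCK read 0.18 and -0.59 in GATA1 5-13 and 0.04 and -0.61 in GATA1 4-14. Both array pairs then straddled 0, and the mean of each swapped pair, in which a dye part cancels, stayed negative. Counts of arrays on 1 side of 0 therefore rest on the loess step: with median centring, 0 of the 13 probes had the same sign on all arrays, and so did 8.26% of all probes against 26.2% after loess.

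CBS, the first enzyme of transsulfuration, was likewise lower on all arrays. Probe A_23_P166306, at chr21:43346388-43346447 of hg18 on the minus strand, gave log2 ratios of -0.21 and -0.32 in GATA1 5-13 and of -0.16 and -0.30 in GATA1 4-14. Probe A_24_P48856, whose match spans 1317 bases at chr21:43350054-43351370 on the minus strand, gave -0.24 and -0.31 in GATA1 5-13 and -0.17 and -0.33 in GATA1 4-14. After loess, the array with the knockdown RNA in Alexa555 gave the larger difference in both clones, the opposite of DCK. With median centring in place of loess, that array was the lower one for both genes. So centred, A_24_P48856 read 0.13 and -0.56 in GATA1 5-13 and 0.09 and -0.57 in GATA1 4-14. The gap was wider at A_23_P166306 in both clones, with 0.50 and -0.90 in GATA1 4-14. The centred means over clones stayed negative, at -0.22 for A_23_P166306 and -0.23 for A_24_P48856. The means were -0.25 ± 0.03 (SD, n = 2; interval -0.42 to -0.08) and -0.26 ± 0.02 (SD, n = 2; interval -0.43 to -0.09), with limma adjusted p of 0.60 at both probes. At A_23_P166306 the level was 15.64 ± 0.02 log2 units in GATA1 Neg (SD over 4 measurements), 15.39 in GATA1 5-13 and 15.40 in GATA1 4-14.

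The chromosome around CBS was also lower. Of the other probes on chromosome 21 that were above background in both RNAs on all arrays, 83.6% of 256 had a mean below 0, and their median was -0.19, made up of -0.13 for GATA1 5-13 and -0.22 for GATA1 4-14. Within 1 Mb of the CBS probe, 27 of 30 probes from 15 genes were below 0 and the median was -0.11, with 12 probes lower on each of the 4 arrays. The part of this shift in the CBS value was not tested. Around DCK it was otherwise, with 2 of 8 probes within 1 Mb below 0, a local median of 0.07 and a median of 0.01 over chromosome 4. The CDA probe lies on chromosome 1, whose median was -0.09, and the chromosome medians of the remaining 6 genes lay between -0.01 and 0.03.

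**Figure D2:**
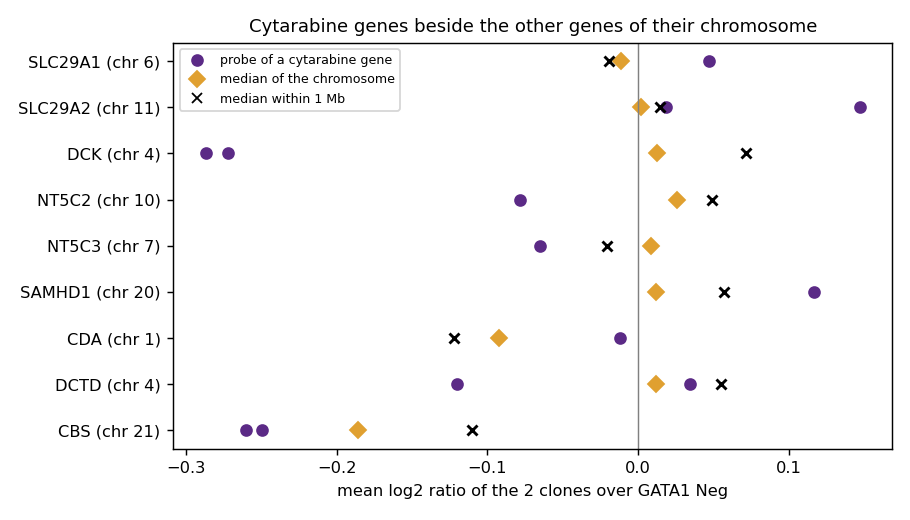
Mean log2 ratio over the clones (in log2 units) of each cytarabine gene's probes beside the medians of the other probes on its chromosome and within 1 Mb of it, which were taken over probes above background in both RNAs on every array. The CBS probes lie at -0.25 and -0.26 beside a chromosome 21 median of -0.19, and the DCK probes at -0.27 and -0.29 beside a local median of 0.07.

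To show what the starts of these genes hold, the 250 bases before each RefSeq start site were searched on both strands for GATA motifs, spelled AGATAA or with a last letter G, and likewise TGATAA or with a last letter G, and for the GC box GGGCGG. Within a site of these genes, no match of either motif overlapped another, but the DCTD sites overlap each other and share a GC box. The table gave 15 start sites for 8 of the 9 genes on GRCh38.p14, with NT5C3 under its current symbol NT5C3A, and SLC29A2 was not matched. A GATA motif was found at 3 of the 15 sites, and in 22.3% of all 35116 promoters of the table. A GC box was found at 10 of the 15, against 42.6% of all promoters. The sites of DCK and CBS held 0 GATA motifs, as did those of CDA, DCTD and SAMHD1. No link between motifs and log2 ratios was tested. The DCK site (chr4:70993399-70993648, plus strand) held 3 GC boxes, and the CBS sites 1 (chr21:43076378-43076627) and 2 (chr21:43075836-43076085), both on the minus strand, held 1 and 4. They are shown first, 5′ to 3′ toward the start, with motif matches in capitals.
DCK site 1: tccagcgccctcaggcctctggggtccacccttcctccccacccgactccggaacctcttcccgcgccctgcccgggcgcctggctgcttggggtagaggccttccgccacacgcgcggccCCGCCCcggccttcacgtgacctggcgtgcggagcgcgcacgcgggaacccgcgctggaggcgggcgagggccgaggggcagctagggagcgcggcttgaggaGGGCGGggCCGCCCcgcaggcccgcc
CBS site 1: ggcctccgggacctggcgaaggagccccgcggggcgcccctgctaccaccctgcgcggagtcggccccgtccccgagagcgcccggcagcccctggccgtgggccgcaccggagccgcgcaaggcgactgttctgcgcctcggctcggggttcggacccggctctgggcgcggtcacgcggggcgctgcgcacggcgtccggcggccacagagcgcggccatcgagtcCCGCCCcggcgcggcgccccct
CBS site 2: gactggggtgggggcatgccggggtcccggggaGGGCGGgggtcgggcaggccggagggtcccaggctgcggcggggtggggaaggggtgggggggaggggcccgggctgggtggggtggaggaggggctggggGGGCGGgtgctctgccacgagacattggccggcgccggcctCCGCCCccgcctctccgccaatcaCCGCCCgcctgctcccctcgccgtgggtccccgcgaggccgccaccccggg
The following 3 are the sites with a GATA motif. SLC29A1 site 2 (chr6:44223345-44223594, plus strand) has AGATAG on its minus strand at -205 to -200 from the start. NT5C2 site 3 (chr10:103177058-103177307, minus strand) has TGATAA at -47 to -42 and AGATAA at -29 to -24, both on the strand opposite the gene. NT5C3 site 2 (chr7:33040907-33041156, minus strand) has TGATAA on the gene's strand at -185 to -180.
SLC29A1 site 2: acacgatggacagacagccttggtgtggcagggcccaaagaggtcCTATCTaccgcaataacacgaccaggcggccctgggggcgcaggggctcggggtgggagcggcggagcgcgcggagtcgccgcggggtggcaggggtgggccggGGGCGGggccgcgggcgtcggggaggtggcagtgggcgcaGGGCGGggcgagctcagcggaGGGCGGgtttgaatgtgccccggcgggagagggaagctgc
NT5C2 site 3: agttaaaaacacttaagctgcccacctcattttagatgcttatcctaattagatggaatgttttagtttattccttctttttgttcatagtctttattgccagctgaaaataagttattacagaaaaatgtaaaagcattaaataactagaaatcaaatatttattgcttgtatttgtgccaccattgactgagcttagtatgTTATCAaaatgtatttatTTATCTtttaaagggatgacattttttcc
NT5C3 site 2: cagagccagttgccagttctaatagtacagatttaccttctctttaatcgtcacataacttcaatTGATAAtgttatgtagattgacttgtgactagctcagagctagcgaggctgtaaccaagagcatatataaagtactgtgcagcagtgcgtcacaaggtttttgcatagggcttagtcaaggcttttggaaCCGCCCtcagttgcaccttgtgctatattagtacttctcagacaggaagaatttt
A match is a run of letters only, and binding at these sites was not measured on these arrays.

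Of the uptake genes, SLC29A1 showed no difference that held across dyes. Its probe A_23_P133694 (chr6:44309753-44309812 of hg18, plus strand) gave log2 ratios of -0.11 and 0.28 in GATA1 5-13 and of -0.21 and 0.24 in GATA1 4-14. The sign followed the dye and not the clone. After loess it was negative where the knockdown RNA carried Alexa647 and positive where it carried Alexa555. With median centring in place of loess this direction was reversed, at 0.46 and -0.22 in GATA1 5-13 and 0.27 and -0.21 in GATA1 4-14. The mean was 0.05 ± 0.05 (SD, n = 2), with a limma adjusted p of 0.87 and an interval of -0.13 to 0.23.

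SLC29A2, the second equilibrative transporter, was dim. Its probe A_23_P104705 gave 0.27 and 0.04 in GATA1 5-13 and 0.23 and 0.05 in GATA1 4-14, above 0 on every array. The mean was 0.15 ± 0.009 (SD, n = 2; interval -0.02 to 0.32), with a limma adjusted p of 0.68, and the background-subtracted intensity of GATA1 Neg there was only 50.5 to 192. With the log ratios of the scanner software the same mean was 0.34, and over all alternatives it ran from 0.06 to 0.34. The other probe, A_23_P98294, gave 0.11 and 0.03 in GATA1 5-13 and 0.03 and -0.10 in GATA1 4-14, a mean of 0.02 ± 0.07 (SD, n = 2). The probes of SLC29A2 thus differed in whether all arrays had the same sign.

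Among the enzymes that take phosphate off, no probe had the same sign on all 4 arrays. NT5C3, a pyrimidine nucleotidase, gave log2 ratios of -0.22 and -0.22 in GATA1 5-13 and of 0.06 and 0.12 in GATA1 4-14 (A_23_P59547, chr7:33020721-33020780 of hg18, minus strand). Both arrays of GATA1 5-13 lay below 0 and both of GATA1 4-14 above it, so the mean of -0.07 ± 0.22 (SD, n = 2; limma adjusted p 0.91) describes neither clone; 15.9% of all probes tested split the clones in this way. NT5C2, a purine nucleotidase, gave -0.15 and -0.23 in GATA1 5-13 and 0.10 and -0.04 in GATA1 4-14, a mean of -0.08 ± 0.16 (SD, n = 2; limma adjusted p 0.84). SAMHD1, the triphosphohydrolase, gave 0.04 and 0.47 in GATA1 5-13 and -0.16 and 0.12 in GATA1 4-14. Its mean of 0.12 ± 0.19 (SD, n = 2; limma adjusted p 0.80) was smaller than the gap between the arrays of either clone. After loess, the higher array was again that with the knockdown RNA in Alexa555. With median centring in place of loess, SAMHD1 read 0.26 and 0.27 in GATA1 5-13 and -0.02 and -0.04 in GATA1 4-14. The gap between dyes was thus seen only after dye normalisation by intensity. The sign of the clone means was opposite at 4 of the 13 probes, against 43.5% of all probes tested.

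**Figure D3:**
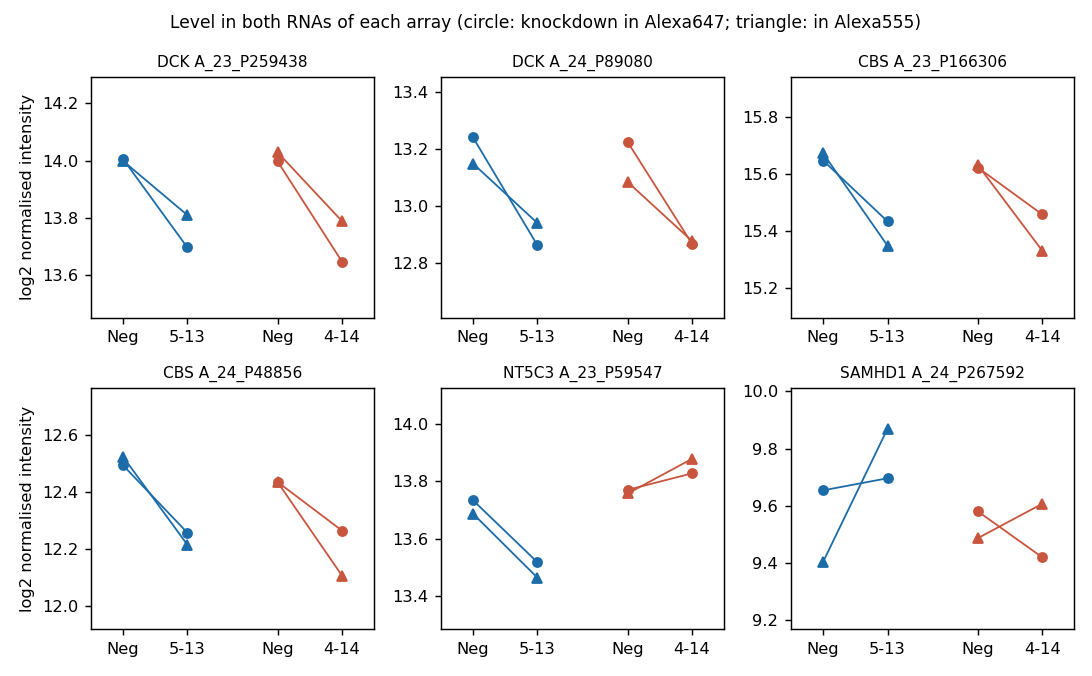
Log2 normalised intensity (vertical axis, after loess and Aquantile, on an axis of its own for each probe) of GATA1 Neg and of the clone on the same array, with a line joining both RNAs of each array, blue for GATA1 5-13 and red for GATA1 4-14, and circles or triangles where the knockdown RNA carried Alexa647 or Alexa555. Every line of the DCK and CBS probes runs down from GATA1 Neg to the clone, those of NT5C3 run down in GATA1 5-13 and up in GATA1 4-14, and those of SAMHD1 differ by dye.

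The deaminases showed no difference past the test. DCTD, which deaminates the monophosphate, was measured by probes that lay on either side of 0. Probe A_24_P345948 gave -0.13 and -0.13 in GATA1 5-13 and -0.14 and -0.08 in GATA1 4-14, lower on every array, with a mean of -0.12 ± 0.01 (SD, n = 2; interval -0.29 to 0.05; limma adjusted p 0.70). Probe A_24_P337334 gave 0.02 and 0.11 in GATA1 5-13 and -0.04 and 0.05 in GATA1 4-14, with a mean of 0.03 ± 0.04 (SD, n = 2). CDA was not well above background in either RNA on any array, so no fold or direction is given for it.

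**Figure D4:**
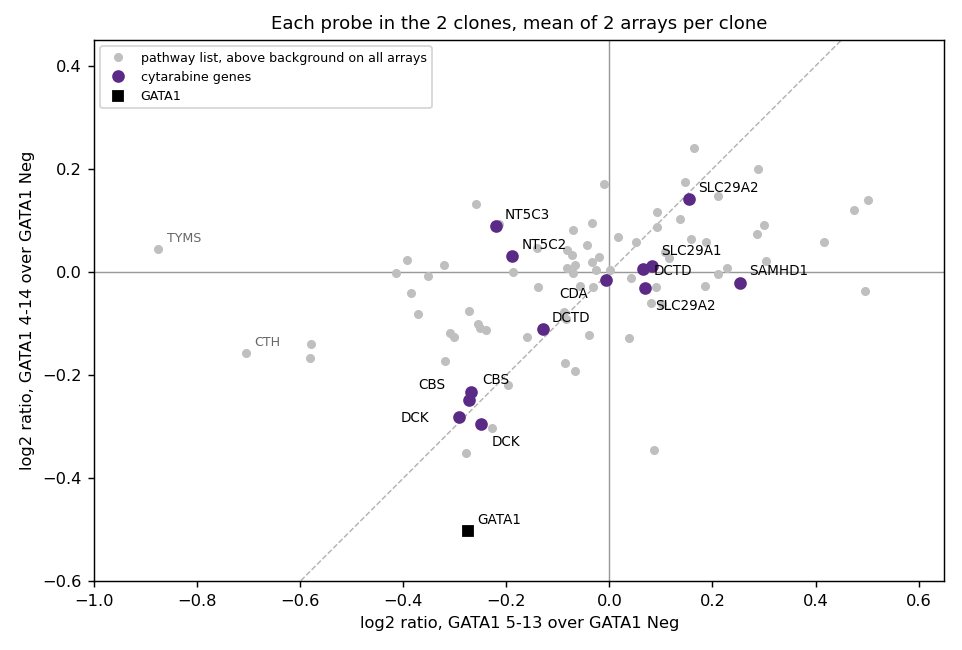
Log2 ratio over GATA1 Neg in GATA1 5-13 (horizontal) and GATA1 4-14 (vertical), in log2 units and as means of 2 arrays, for the probes of the cytarabine genes, GATA1 and the other nucleoside genes above background on all arrays. The dashed line marks equal values, near which the DCK and CBS probes lie at -0.23 to -0.30, while NT5C3 lies at -0.22 and 0.09 and TYMS at -0.88 and 0.04.

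The other genes of nucleoside uptake, phosphorylation, breakdown, synthesis and methyl metabolism were then counted from a list of 74 names, of which 64 were on the array with 100 probes. Their median log2 ratio was -0.02, beside -0.07 for the cytarabine genes. Of the 100 probes, 14 were lower and 15 higher on all arrays, near the shares of all probes. With limma, 0 passed the unadjusted cutoff of 0.005 and 0 the adjusted one, while 4 were lower and 3 higher at an unadjusted p under 0.05. Among them, named after their values were seen, were 2 probes of the nucleotide exporter ABCC4 (-0.27 and -0.31) and 1 of the folate carrier SLC19A1 (-0.21) on the lower side, and 2 of AHCY (0.24 and 0.18) and 1 of the CTP synthase CTPS2 (0.20) on the higher side.

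Among the largest differences in the list were those of CTH, TYMS and NT5C3L. CTH, which follows CBS in transsulfuration, gave -0.72 and -0.69 in GATA1 5-13 and -0.20 and -0.12 in GATA1 4-14, a mean of -0.43 ± 0.39 (SD, n = 2; limma adjusted p 0.68). Both transsulfuration enzymes were thus lower on every array. CTH lies on chromosome 1, whose probes, 72% of them below 0, had medians of -0.15 (GATA1 5-13) and -0.02 (GATA1 4-14), and SLC19A1 lies on chromosome 21, and the part of either chromosome in these values was not tested. TYMS, which makes dTMP, gave -0.82 and -0.93 in GATA1 5-13 and 0.29 and -0.20 in GATA1 4-14, a mean of -0.42 ± 0.65 (SD, n = 2; limma adjusted p 0.76). NT5C3L, a relative of NT5C3, had a mean of 0.32 ± 0.26 (SD, n = 2; limma adjusted p 0.68). Among the steps next to DCK, the 13 probes of nucleoside and nucleotide kinases had a median of -0.04, with 1 lower and 1 higher on all arrays. Ribonucleotide reductase, which supplies the deoxynucleotides that compete with cytarabine, did not move 1 way. Its subunit RRM2 had means of -0.08 and -0.21 (limma adjusted p 0.75 and 0.68), lower on all arrays at both probes. Of all probes tested, 13.4% were lower on all arrays. RRM1 was higher on all arrays with a mean of 0.06, and RRM2B, with a mean of 0.01, had arrays on both sides of 0. The concentrative transporters SLC28A1, SLC28A2 and SLC28A3 were never above background.

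**Figure D5:**
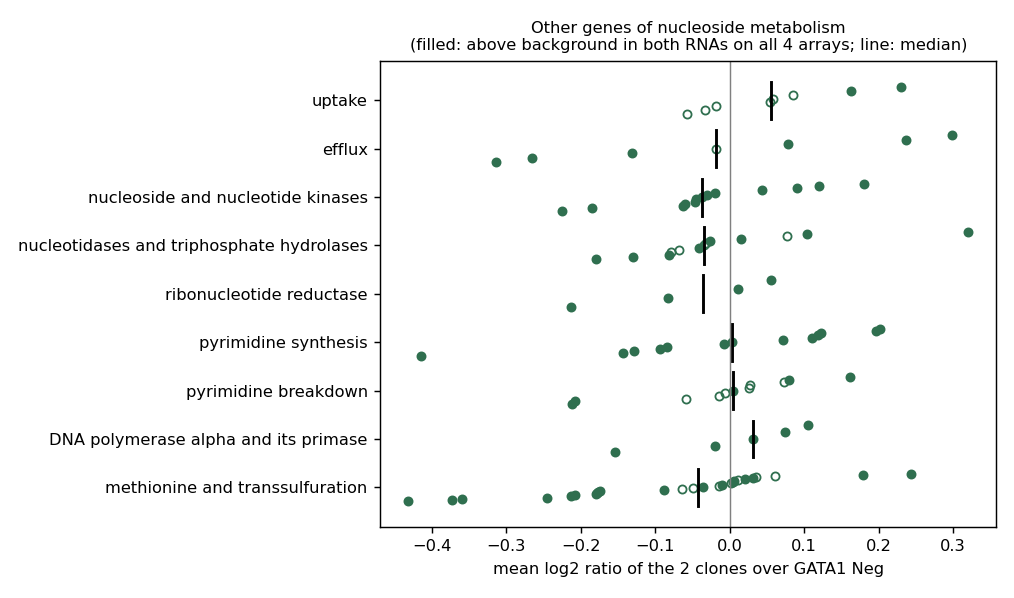
Mean log2 ratio over the clones (in log2 units) of each probe of the other nucleoside and methyl metabolism genes, grouped by role, with filled points for probes above background in both RNAs on all arrays and a line at the median of each role. The values run from -0.43 (CTH) to 0.32 (NT5C3L), with role medians from -0.04 to 0.06.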

How the data were processed

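Meg-01 RNA of each GATA1 shRNA clone was hybridised against that of GATA1 Neg on 4 Agilent arrays. The authors deposited scanner output from Feature Extraction 9.5.3.1 (hg18 positions). Its mean spot and median background intensities, deposited with no normalisation, were used here, and its deposited log10 ratios, background-subtracted and dye-normalised, served as an alternative. Per-spot p-values were deposited too and support no result. The series value table held these log10 ratios with the sign of the swapped arrays turned, equal within 4.98e-06. The authors' combination of arrays in Rosetta Resolver was not repeated.

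With limma 3.58.1 (R 4.3.3), intensities were corrected by normexp (offset 50) and normalised by loess within each array. Control and outlier spots were left out, spots of a probe averaged, signs turned to knockdown over control, and the 2 arrays of a clone averaged to 1 replicate. The two-sided test set the mean of the clones against 0, and p-values were adjusted by the Benjamini-Hochberg method for 40974 probes. Probes of a gene were kept apart. Both clones share 1 control RNA, whose own spread between cultures was not measured, and the number of arrays limits the precision. As the arrays share a slide, it could not be tested as a batch. All probes of the 9 genes were named, with GATA1, the 5 largest differences of the nucleoside list among probes above background, and the 5 probes most like the leading DCK probe, except that 1 gene of the list is not reported here. The genes, lists and tests were chosen with earlier results of these data known, although the matching of probes to genes used no measured value. The test was tried on simulated data, whose true differences were larger than any of the 9 genes here. That trial therefore does not bear on differences of the size reported. Alternatives were no background correction, the deposited ratios, the series value table, median centring, Aquantile, a trend of variance with intensity, outlier spots kept in, dim probes left out, an error-weighted mean, the 4 arrays as separate values (plain, or blocked by replicate number), and each array or clone left out. Exon and UTR positions on hg18 were not used here.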

Additional observations from a re-analysis of the deposited data

Results flagged for a closer look

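The NT5C3 probe was marked because the clones pointed opposite ways. Both arrays of GATA1 5-13 lay below 0 and both of GATA1 4-14 above it, and the log2 ratio of GATA1 5-13 minus that of GATA1 4-14 was -0.31. The difference was not tested, since each clone is 1 replicate. Such a split was found at 15.9% of all probes tested.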

How the results depend on the processing

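DCK, CBS and GATA1 kept their direction under every alternative run, GATA1 at -0.50 (without clone GATA1 5-13) to -0.27 (without clone GATA1 4-14). At an unadjusted p of 0.005, limma called 2 of the 13 probes without background correction (DCK A_24_P89080 and CBS A_24_P48856), 1 with the deposited log ratios and 1 with the series value table (that DCK probe). With the 4 arrays as 4 values, all 4 DCK and CBS probes passed, 2 of them, those of DCK, also after adjustment, as did GATA1 (-0.39, adjusted p 0.049), and 4 probes of the nucleoside list passed, 1 of them after adjustment. With the replicate block, 4 of the 13 probes and 4 of the list passed 0.005, and 0 of the 13 after adjustment. Over all probes, 369 were called at 0.005 on 2 clones, 249 without background correction, 252 with either form of the deposited ratios, 2208 on 4 arrays without the block, 1775 with it and 3536 by the error-weighted mean. After adjustment the last 3 called 1240, 269 and 3416 and the others 0. The replicate number marks only the dye orientation, in which the deviations of the arrays correlated at 0.77 over probes. The error-weighted mean called 7 of the list at 0.005 and 7 after adjustment, GATA1 (-0.40, adjusted p 0.0027, range over alternatives 0.0027 to 0.67), and 0 of the 13. Probes of 1 sign on all arrays were 0 with median centring, and 6 to 11 with an array or clone left out, where fewer arrays have to share a sign and 33.3% to 66.2% of all probes did. Some means changed sign. Without clone GATA1 5-13, NT5C2 was 0.03, NT5C3 0.09, SAMHD1 -0.02 and TYMS 0.04. CDA, not above background and with no direction to read, was 0.00016 without background correction, and with an array or clone left out CDA was -0.036 to 0.013, SLC29A1 -0.065 to 0.16 and SLC29A2 A_23_P98294 -0.031 to 0.068. The cause of these changes was not tested. With dim probes left out, CDA was not tested. A clone left out leaves 1 replicate and no test. The intensities of SLC29A2 and CDA, near background, limit what can be said of them.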

Other observations

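Over the 4 arrays, the probes of other genes closest to DCK A_24_P89080, by the Euclidean distance of their log2 ratios among 16428 probes with a RefSeq mRNA, were those of ITSN2 (0.080), HMGN1 (0.081), NEFH (0.087), EPOR (0.088) and NARG2 (0.089). In all, 10 probes lay within a distance of 0.1. All points share the control RNA and the slide.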
